A study of Mus musculus with 24 samples.

Results

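The ventrobasal complex (VB) of the thalamus was compared between postnatal day 4 (P4) and the day of birth (P0) in embryonically bilaterally enucleated (embBE) mice, with 3 arrays at each age. These 6 arrays are all the embBE VB arrays of the series, chosen by their labels, out of 24 in all. Each age was read for 18194 genes, with 1 probe set per gene, the one with the highest mean signal over the 24 arrays. The embBE mice were wild type on a C57BL/6 background and had both eyes cauterized in utero, while control embryos of the same litters kept theirs. The control VB arrays (3 at P0 and 3 at P4) and the embBE arrays of the dorsal lateral geniculate nucleus (dLGN, 4 at P0 and 3 at P4) serve as comparisons. By the series' description each sample was a pool of tissue from pups of 1 litter and condition, microdissected from brain slices, and its RNA went through 2 rounds of amplification before hybridization to an Affymetrix mouse genome array. The labels give each sample a pair of numbers whose meaning is not stated (35_3, 39_3 and 39_4 at P0, 24_4, 36_2 and 40_3 at P4). Array values are listed in this order throughout. No first number occurs at both ages, so age and whatever that number stands for cannot be told apart. Arrays 39_3 and 39_4 share their first number, and the main fit treats all arrays as independent. The p-values measure the spread between arrays of a group, pooled over the embBE and control VB arrays, or over all 24 arrays for contrasts with the dLGN.

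The VB relays touch from the face and body to the somatosensory cortex. Its relay neurons use glutamate and, in rodents, send axons that form the barrel pattern of the cortex in the first days after birth. In the same days thalamic neurons leave the immature state, astrocytes spread and mature, and oligodendrocyte precursors begin to differentiate. The comparison asks how VB gene expression moved over these days in animals that never received retinal input to the neighbouring visual thalamus.

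The deposited values are log2 signals, so a difference of 1 is a 2-fold change of the signal. The tissue carried the markers of relay neurons at both ages. Slc17a6, the vesicular glutamate transporter of the thalamus, read 12.49, 12.89 and 12.47 at P0 and 13.12, 12.87 and 13.32 at P4, the transcription factor gene Tcf7l2 read 12.70, 12.39 and 12.37 and 12.69, 12.21 and 12.39, and Ntng1, a netrin-G of thalamic axons, read 13.17, 13.28 and 13.20 and 12.98, 12.95 and 13.15. The choroid plexus gene Ttr stayed between 6.72 and 6.96, the haemoglobin gene Hba-a1 between 6.07 and 6.43, and Slc32a1, the vesicular transporter of inhibitory neurons, between 6.30 and 6.65. Arrays of the same age correlated at 0.9949 to 0.9969 over all genes, and arrays of different age at 0.9882 to 0.9923. The actin gap, the log2 excess of the 3′ over the 5′ actin probe set and a common measure of RNA integrity, was 2.25 to 2.55 at P0 and 1.98 to 2.05 at P4, so it differed between the ages without overlap. Its part in the results was not tested apart from a fit with the gap as a covariate, in which 680 genes were called, 547 higher and 133 lower, with 457 of the 485 genes called below among them. The arrays 39_3 and 36_2 carried Y-linked Eif2s3y at 8.89 and 8.97 with Xist at 6.97 and 6.82, while the other 4 had Eif2s3y at 3.47 to 3.75 and Xist at 10.08 to 11.26. Each age thus held 1 array of the first kind. Of the 12 VB arrays, 0 had both genes above 8, which a pool of pups of both sexes would carry together, so whether an array stands for several pups of 1 sex or for 1 pup could not be told.

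Between P0 and P4, 415 genes rose and 70 fell in the embBE VB. Called here means a change of 1.5-fold or more with a Benjamini-Hochberg adjusted p under 0.05 in limma, fitted over the 12 VB arrays. Without any 1 of the 6 arrays, 202 (without 39_4) to 293 genes were called, so each array moved the count by more than 1.5 times. The rising genes made up 2.28% and the falling genes 0.385% of the genes tested. The median difference over all genes was −0.04 on the log2 scale. Of the genes that rose, 152 differed by more than 1 on the log2 scale and 9 by more than 2. Of those that fell, 12 passed 1 and 1 passed 2. All 3 P4 arrays lay above all 3 P0 arrays in 414 of the 415, as they did in 17.6% of all genes, and below them in all 70 of the genes that fell, as in 20.9% of all genes. The lowest adjusted p over all genes was 1.61e-05, for Igf1.

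The largest increases were led by genes of astrocytes. Aqp4, which encodes the water channel of astrocyte endfeet, read 6.71, 6.81 and 7.14 at P0 and 10.67, 11.16 and 10.55 at P4. It rose 15-fold (log2 difference 3.91, SE 0.41, adjusted p = 0.000571). S100b, a calcium-binding protein of astrocytes, read 6.35, 5.80 and 6.30 at P0 and 9.48, 9.69 and 9.28 at P4, and rose 10.1-fold (3.33, SE 0.23, adjusted p = 2.25e-05). The P4 arrays of both genes stood more than 2 log2 units above every P0 array. Slc14a1, a urea transporter found in astrocytes, rose from 3.90, 4.63 and 4.30 to 6.95, 7.51 and 7.15 (7.60-fold), and Gpr37l1, an astrocyte receptor, from 7.05, 6.96 and 6.96 to 9.65, 9.86 and 9.59 (6.54-fold). Slc39a12, a zinc transporter, rose 3.91-fold. None of these 5 genes lost its call when any 1 of the 6 arrays was left out.

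**Figure D1:**
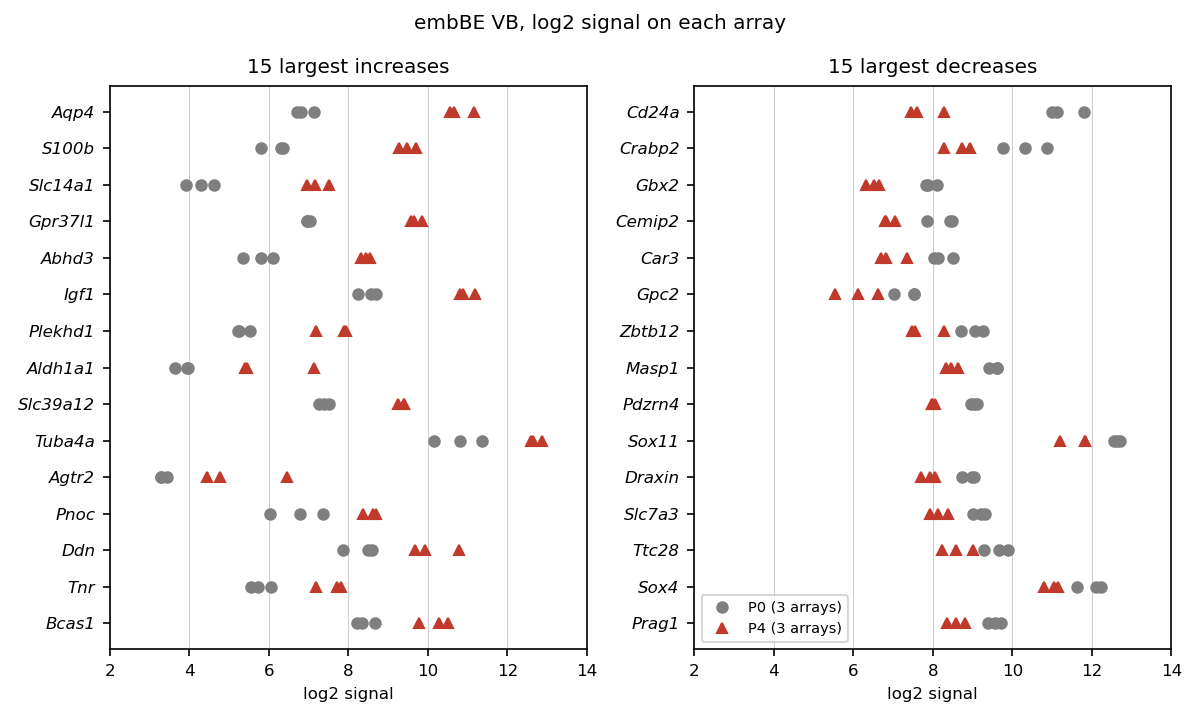
Log2 signal (horizontal axis) of the 15 largest increases (left) and the 15 largest decreases (right) in the embBE VB, with grey circles for the 3 P0 arrays and red triangles for the 3 P4 arrays. The 30 genes were chosen among those whose ages do not overlap, and the widest gaps belong to Aqp4, S100b and Gpr37l1 among the increases and to Cd24a among the decreases.

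The other large increases were in a growth factor, a tubulin, a neuropeptide and several enzymes and receptors. Igf1, an insulin-like growth factor, read 8.69, 8.58 and 8.24 at P0 and 10.82, 11.19 and 10.88 at P4, a 5.50-fold rise (2.46, SE 0.15, adjusted p = 1.61e-05). All 3 P4 arrays stood more than 2 log2 units above every P0 array. Abhd3, a phospholipase, rose 6.45-fold and Plekhd1 5.07-fold. Tuba4a, an alpha-tubulin that accumulates in maturing neurons, read 11.36, 10.80 and 10.15 at P0 and 12.60, 12.87 and 12.63 at P4 (3.82-fold), and Pnoc, the precursor of the neuropeptide nociceptin, rose 3.56-fold. Ddn, a postsynaptic protein of dendrites, rose 3.52-fold. Aldh1a1, an enzyme that makes retinoic acid, read 3.94, 3.65 and 3.97 at P0 and 5.46, 7.14 and 5.40 at P4, and Agtr2, an angiotensin receptor, 3.29, 3.45 and 3.30 and 4.77, 6.45 and 4.43. In both genes array 36_2 was the highest of the P4 arrays by more than 1.5 log2 units. Agtr2 kept its call in 1 of the 6 fits that left out 1 array (adjusted p up to 0.122, over fits), Aldh1a1 lost it without 39_3 or 39_4 (up to 0.0693), and Ddn without 39_3, 39_4 or 36_2 (up to 0.0791).

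The largest decrease was in Cd24a, which encodes a surface glycoprotein of newborn neurons. It read 11.12, 11.01 and 11.81 at P0 and 7.59, 7.45 and 8.28 at P4, an 11.6-fold fall (−3.54, SE 0.24, adjusted p = 2.21e-05). No other gene fell by more than 2 on the log2 scale. Crabp2, which binds retinoic acid in the cell, read 10.31, 9.76 and 10.88 at P0 and 8.93, 8.73 and 8.29 at P4 (3.18-fold lower). Gbx2, a homeobox factor of early thalamic neurons, read 8.11, 7.82 and 7.87 and 6.33, 6.65 and 6.51 (2.71-fold lower, adjusted p = 0.0272). Cemip2, a cell surface hyaluronidase, fell 2.57-fold, the carbonic anhydrase gene Car3 2.41-fold, and Gpc2, a glypican of growing axons, from 7.02, 7.54 and 7.52 to 5.54, 6.13 and 6.61 (2.40-fold). Draxin, a repulsive guidance protein, fell 2.04-fold, and so did Zbtb12 (2.37-fold), Masp1 (2.10-fold), Pdzrn4 (2.05-fold), Slc7a3 (2.03-fold), Ttc28 (2.0-fold) and Prag1 (1.95-fold). With 1 array left out at a time, Gbx2 lost its call in all 6 fits (adjusted p up to 0.104), Crabp2 in 5 of them (up to 0.148), Car3 in 5 (up to 0.111), Slc7a3 in 5 (up to 0.1), Gpc2, Zbtb12 and Ttc28 in 4 each (up to 0.0995, 0.0722 and 0.0761) and Prag1 without 39_4 (0.0609). The calls of Cd24a, Cemip2, Masp1, Pdzrn4 and Draxin held in all 6.

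The sequence just before the start of some of these genes is shown because the genes that fell and the genes that rose held the GC box in unequal shares, which is given as a description with no test. The GC box is the 6-base motif GGGCGG, read here on both strands, that Sp-family factors bind. Upstream sequence of 250 bases was taken from RefSeq (build GRCm38.p6) for 14368 of the 18194 genes. The motif was present in 50% of them, in 51.5% of the 334 genes with sequence that rose and in 74.5% of the 51 with sequence that fell. Median GC content was 57.6% over all, 59.6% in the genes that rose and 63.2% in those that fell. Among the 15 largest decreases, 6 of the 8 with sequence held the motif, and among the 15 largest increases, 1 of 9. The examples, 3 from the decreases and 1 from the increases, are given 5′ to 3′ on the strand of the gene, each ending at the base before the start, with the motif (or its reverse complement) in capitals.
Gbx2 (chr1:89931177-89931426, minus strand): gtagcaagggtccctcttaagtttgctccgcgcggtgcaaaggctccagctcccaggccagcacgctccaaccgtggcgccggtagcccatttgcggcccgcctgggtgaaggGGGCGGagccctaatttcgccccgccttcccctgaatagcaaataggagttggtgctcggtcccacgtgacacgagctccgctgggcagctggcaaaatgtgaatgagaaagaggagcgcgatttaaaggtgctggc
Sox11 (chr12:27342719-27342968, minus strand): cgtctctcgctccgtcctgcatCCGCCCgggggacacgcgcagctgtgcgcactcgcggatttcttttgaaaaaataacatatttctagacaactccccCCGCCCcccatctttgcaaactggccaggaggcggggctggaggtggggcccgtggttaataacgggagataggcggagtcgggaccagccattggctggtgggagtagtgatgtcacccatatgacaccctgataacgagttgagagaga
Gpc2 (chr5:138279938-138280187, minus strand): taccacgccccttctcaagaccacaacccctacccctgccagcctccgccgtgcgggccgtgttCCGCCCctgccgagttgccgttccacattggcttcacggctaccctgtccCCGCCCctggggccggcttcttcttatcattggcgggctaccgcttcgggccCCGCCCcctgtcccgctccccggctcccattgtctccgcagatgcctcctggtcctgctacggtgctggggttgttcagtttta
S100b (chr10:76253586-76253835, plus strand): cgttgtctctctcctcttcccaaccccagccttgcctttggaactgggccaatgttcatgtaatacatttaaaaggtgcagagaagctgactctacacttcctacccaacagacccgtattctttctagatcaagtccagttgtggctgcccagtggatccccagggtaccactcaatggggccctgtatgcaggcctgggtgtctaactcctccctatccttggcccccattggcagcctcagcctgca
Gbx2 held 1 GC box, Sox11 2 and Gpc2 3 in this window, and S100b none. The dinucleotide CG, counted on 1 strand, occurred 18 times in the Gbx2 window, 17 times in that of Sox11 and 19 times in that of Gpc2, against 2 times in that of S100b. These are examples: the count ran from 2 to 20 over the largest increases with sequence and from 1 to 36 over the largest decreases. Its median was 11 in all genes that rose, 16 in all that fell and 13 over all genes. A match of these letters is a description of the window and not a bound site. Cd24a, Aqp4 and Crabp2 had no entry among these sequences.

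Of the lists with at least 10 measured genes, the astrocyte and radial glia list had the highest share of members that rose. Of 29 measured members, 10 rose (34.5%) and none fell, with a median difference of 0.69 against −0.04 over all genes. The counts of this and the following lists stand beside 2.28% of all genes that rose and 0.385% that fell. Besides Aqp4 and S100b, Apoe, a lipid carrier secreted by astrocytes, read 11.27, 11.24 and 11.46 at P0 and 12.93, 13.07 and 12.96 at P4 (3.17-fold), and Gja1, the gap junction protein connexin 43, read 11.24, 11.52 and 11.75 and 13.06, 12.92 and 12.99 (2.80-fold). Ndrg2 rose 2.45-fold and the growth factor receptor gene Fgfr3 2.17-fold, and Gjb6, the other astrocyte connexin, rose 1.61-fold from 3.82, 3.77 and 3.76. The remaining 3 were Slc1a2, the main glutamate transporter (1.71-fold), Slc6a11, a GABA transporter (1.77-fold), and the neurotensin receptor gene Ntsr2 (1.84-fold). Gfap, the intermediate filament of mature and reactive astrocytes, was not called and read 6.21, 6.25 and 6.30 at P0 and 6.01, 5.90 and 6.16 at P4 (−0.23, SE 0.12, adjusted p = 0.345). The summed linear signal of the 29 genes was 40080 to 43055 at P0 and 67623 to 68623 at P4, so the ages did not overlap. In bulk tissue more cells of a type and more RNA per cell cannot be told apart. Apoe lost its call in all 6 fits that left out 1 array (adjusted p up to 0.144), Gjb6 in 5 (up to 0.0858), Ndrg2 in 4 (up to 0.0568) and Fgfr3 without 39_3 (0.0506).

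**Figure D2:**
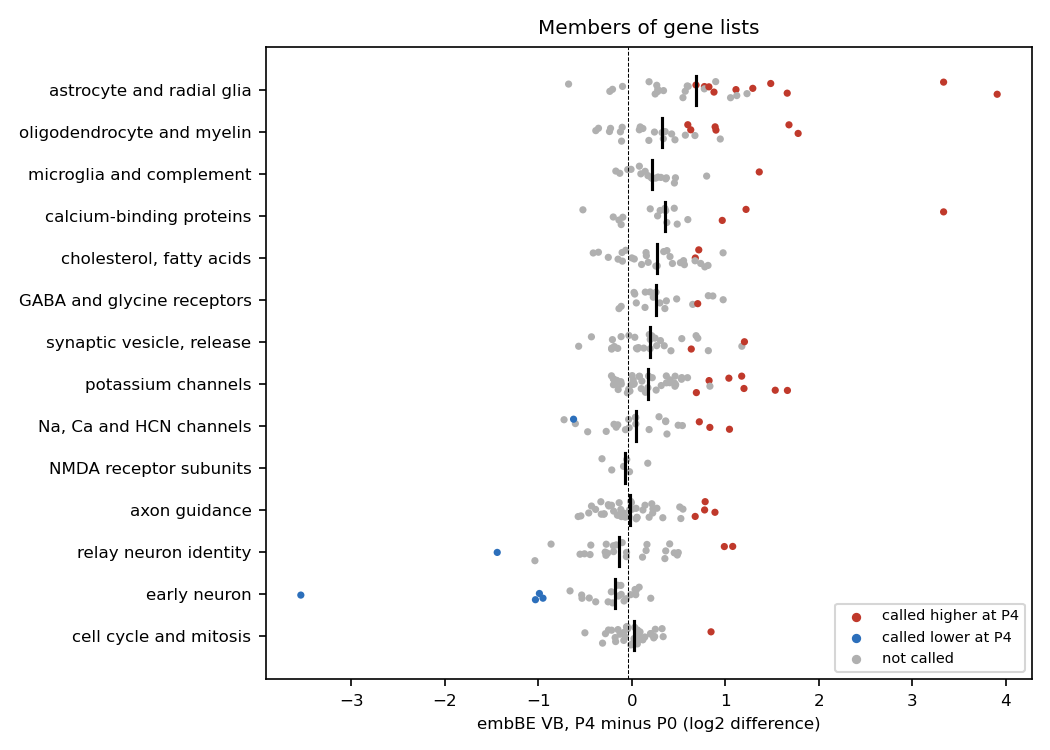
Difference between P4 and P0 (log2, horizontal axis) for each measured member of 14 gene lists in the embBE VB, with red points for genes that rose, blue for genes that fell and grey for genes not called. Black bars are list medians and the dashed line the median of all genes, −0.04; the astrocyte bar lies farthest right, at 0.69.

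In the oligodendrocyte lineage, 6 of 27 measured genes rose (22.2%, beside 2.28% of all genes) and none fell (median 0.32). Read by the brightest probe sets, these 6 include no structural protein of compact myelin, but other probe sets of Mbp rose, as described below. Bcas1, which marks newly forming oligodendrocytes, read 8.21, 8.35 and 8.68 at P0 and 10.29, 10.51 and 9.78 at P4 (3.43-fold), and Gpr17, a receptor of the same stage, 7.34, 7.94 and 8.03 and 9.54, 9.58 and 9.23 (3.21-fold). The transcription factor gene Nkx2-2 rose 1.87-fold, Aspa, which releases acetate for myelin lipids, 1.85-fold, Lims2 1.55-fold and Tspan2 1.51-fold. Lims2 and Tspan2 lost their calls in 4 of the 6 fits that left out 1 array (adjusted p up to 0.085 and 0.0693). Pdgfra, the receptor that marks precursors, read 11.01, 11.09 and 11.28 at P0 and 11.47, 11.13 and 11.33 at P4, and Mog, a protein of mature myelin, 3.30, 3.39 and 3.35 and 3.18, 3.27 and 3.21. The summed signal of the list was 14652 to 16095 at P0 and 20938 to 22128 at P4, again without overlap.

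The myelin basic protein gene Mbp depended on the probe set. The brightest of its 8 probe sets, which stood for the gene, read 8.85, 8.58 and 9.05 at P0 and 8.69, 8.78 and 8.69 at P4 and was not called (−0.10, SE 0.18). The third brightest read 7.22, 7.16 and 7.60 at P0 and 10.32, 10.35 and 9.21 at P4 (2.63, SE 0.30). Of the 8 probe sets, 5 rose, by 1.94 to 2.63 on the log2 scale (adjusted p = 0.00127 to 0.0122 over all 45101 probe sets in limma), and 3 lay between −0.30 and −0.10. In each of the 5, array 40_3 was the lowest of the P4 arrays and lay above every P0 array. Which transcripts each probe set detects was not analysed here. The list count above includes Mbp as not called.

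Other genes with several probe sets were compared in the same fit over all probe sets. All 3 probe sets of Cd24a fell and both of S100b rose. For Aqp4 2 of 3 rose, for Igf1 3 of 4, for Gja1 4 of 6, for Kcna1 3 of 4 and for Klf9 4 of 7, and of the 6 of Sox11 4 fell. For Sox4 2 of 8 fell. Of the 45 named genes with a call and more than 1 probe set, 7 had every probe set called, 16 more than 1 but not every one, and 22 only the brightest. The 22 were Adarb1, Bcas1, Cacna1h, Cacng5, Camk2d, Car3, Cemip2, Draxin, Fads2, Fgfr3, Fosl2, Hes6, Htr7, Kcnab1, Ntn4, Prag1, Sc5d, Sema5a, Sema6d, Slc14a1, Slc39a12 and Unc5b, and their changes rest on 1 probe set each. No probe set of the 45 genes was called in the opposite direction.

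**Figure D3:**
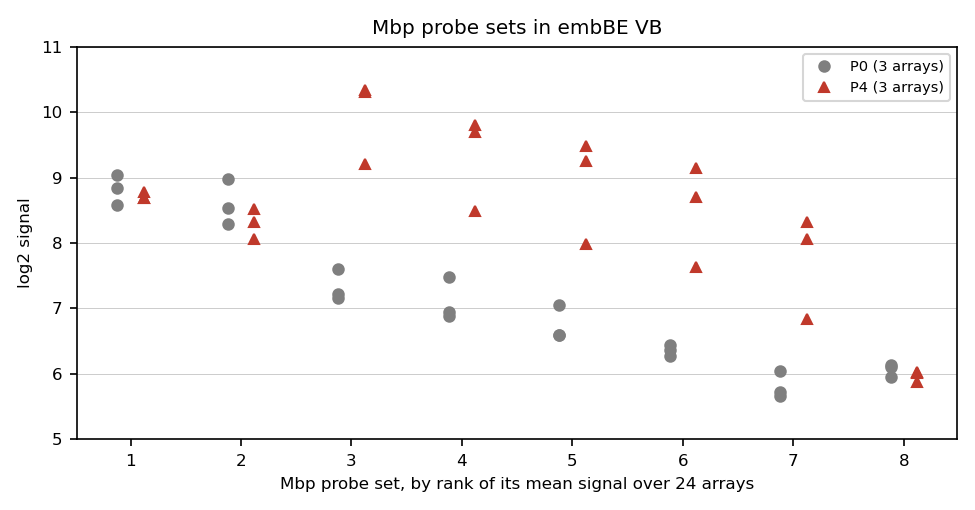
Log2 signal (vertical axis) of the 8 Mbp probe sets, ordered by their mean signal over the 24 arrays (horizontal axis), with grey circles for the 3 P0 arrays and red triangles for the 3 P4 arrays of the embBE VB. The probe sets ranked 3 to 7 are higher on every P4 array than on any P0 array; those ranked 1, 2 and 8 are not.

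Of 24 measured progenitor and early neuron genes, 4 fell (16.7%, beside 0.385% of all genes), none rose and 20 were not called, with a median of −0.18. The difference was below 0 in 19 of the 24, as in 10584 of all 18194 genes. Cd24a is described above. Sox11, a transcription factor of immature neurons, read 12.57, 12.64 and 12.72 at P0 and 11.82, 11.19 and 11.82 at P4 (2.04-fold lower), and its relative Sox4 11.62, 12.12 and 12.23 and 11.06, 10.81 and 11.14 (1.98-fold lower). Hes6, which promotes neuronal differentiation, read 9.83, 9.72 and 9.92 and 8.66, 9.01 and 8.95 (1.93-fold lower, adjusted p = 0.00178). Dcx, the microtubule protein of migrating neurons, read 13.30, 13.33 and 13.41 at P0 and 12.88, 12.62 and 12.94 at P4, so the ages did not overlap, but it missed the threshold (−0.54, SE 0.15, adjusted p = 0.0738). Without 1 array at a time, Sox11 lost its call in 4 fits (adjusted p up to 0.1) and Sox4 in 3 (up to 0.0858), and Cd24a and Hes6 kept theirs in all 6. Chromatin and histone genes of the embryonic state had a median of −0.21 with 0 of 15 called.

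Proliferation genes were called in 1 case. Of 39 measured cell cycle genes, Ccne2, a cyclin of the G1 to S transition, rose 1.80-fold and no member fell (median 0.02). That 1 call is 2.56% of the list, near the 2.28% of all genes that rose. Mki67, the common marker of dividing cells, read 8.02, 8.31 and 8.48 at P0 and 8.37, 8.35 and 7.89 at P4 (−0.07, SE 0.18), with the ages overlapping. Ccne2 lost its call in 5 of the 6 fits that left out 1 array (adjusted p up to 0.112).

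Among 28 measured genes of thalamic relay neuron identity, 2 rose, 1 fell and 25 were not called (median −0.13). Gbx2 is described above. Tnnt1, a troponin gene expressed in relay neurons, read 8.30, 8.66 and 8.09 at P0 and 9.12, 9.54 and 9.63 at P4 (2.11-fold), and Adarb1, an RNA-editing enzyme, 8.65, 9.06 and 8.98 and 9.83, 9.91 and 9.91 (1.99-fold). Rorb, a nuclear receptor of sensory relay neurons, read 8.76, 8.83 and 8.87 at P0 and 9.41, 9.46 and 8.80 at P4, where array 40_3 fell within the P0 range, and was not called (0.41, SE 0.19, adjusted p = 0.319). The other 2 Rorb probe sets had differences of 0.67 and 0.43 (adjusted p = 0.0736 and 0.0971 over all probe sets in limma). The paper, by Student's t-test, reports that Rorb rose from P0 to P4 in embBE and in control mice. It does not state the probe set. Cck, a neuropeptide of thalamic neurons, read 12.71, 12.85 and 12.95 and 13.20, 13.45 and 13.35 (0.50, SE 0.20). Adarb1 lost its call in all 6 fits that left out 1 array (adjusted p up to 0.134) and Tnnt1 in 4 (up to 0.115).

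Ion channel genes were called in both directions. Of 47 measured potassium channel genes 7 rose (14.9%, beside 2.28% of all genes) and none fell (median 0.17). Kcna1, a delayed rectifier subunit of axons, read 8.20, 8.62 and 8.34 at P0 and 9.84, 10.16 and 10.14 at P4 (3.17-fold, adjusted p = 0.000571), and its auxiliary subunit gene Kcnab1 8.67, 8.40 and 8.71 and 9.93, 10.33 and 10.13 (2.90-fold). Kcna2, which assembles with Kcna1, rose 1.77-fold, Kcnn1, a calcium-activated channel, 2.05-fold, and Kcnh5 2.30-fold from 3.18, 3.33 and 3.18. Kcnj10, the potassium channel of astrocytes, rose 2.26-fold. Each of these 6 calls held in all 6 fits that left out 1 array. Among 24 sodium, calcium and HCN channel genes, 3 rose and 1 fell. Scn2b and Scn4b, beta subunits of sodium channels, rose 2.06-fold and 1.78-fold, and the calcium channel beta subunit gene Cacnb4 1.65-fold. Cacna1h, a T-type calcium channel, read 7.97, 7.90 and 8.20 at P0 and 7.29, 7.43 and 7.48 at P4 (1.54-fold lower). Without 1 array at a time Cacna1h lost its call in all 6 fits (adjusted p up to 0.154), Cacnb4 in 4 (up to 0.0778) and Scn4b in 3 (up to 0.0841).

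Transmitter receptors were mostly not called. None of 6 NMDA receptor subunits was, with Grin2b at 9.61, 9.51 and 9.68 at P0 and 9.91, 9.34 and 9.38 at P4 and Grin2a at 3.66, 3.67 and 3.76 and 3.54, 3.55 and 3.36. Of 17 AMPA, kainate and delta receptor genes, 1 rose: Cacng5, an auxiliary subunit of AMPA receptors, read 7.59, 7.999 and 7.999 at P0 and 9.42, 9.72 and 9.19 at P4 (2.99-fold). None of 6 metabotropic glutamate receptor genes was called. Of 19 GABA-A and glycine receptor and chloride transporter genes, 1 rose (median 0.26): Glrb, the beta subunit of the glycine receptor, read 10.53, 10.50 and 10.30 and 11.27, 11.06 and 11.12 (1.63-fold). Gabra2, the alpha 2 subunit, read 8.99, 8.69 and 9.45 and 9.81, 9.84 and 9.43 (0.65, SE 0.19, adjusted p = 0.0814), with 1 P4 value inside the P0 range. Slc12a5, the chloride exporter of mature neurons, read 12.07, 12.03 and 12.06 and 12.44, 12.29 and 12.12 (0.23, SE 0.16). Glrb lost its call in all 6 fits that left out 1 array (adjusted p up to 0.141).

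Of 30 synaptic vesicle and release genes, 2 rose and none fell (median 0.19). Sv2b, a synaptic vesicle protein, read 8.97, 8.51 and 8.18 at P0 and 10.33, 9.43 and 9.52 at P4 (2.31-fold), and Cplx1, which clamps and triggers vesicle fusion, 12.61, 12.74 and 12.59 and 13.29, 13.24 and 13.31 (1.55-fold, adjusted p = 0.0025). Sv2b lost its call in 4 of the 6 fits that left out 1 array (adjusted p up to 0.139), and Cplx1 in none. None of 36 synaptic organizer and adhesion genes and none of 3 vesicular glutamate and GABA transporter genes was called. Cbln4, a secreted organizer of synapses, read 8.20, 7.65 and 6.97 at P0 and 8.46, 9.93 and 8.30 at P4, with array 36_2 alone far above the rest (1.29, SE 0.38, adjusted p = 0.0937). Cbln2 read 9.44, 9.82 and 9.001 and 9.34, 10.20 and 9.37, and Grp, gastrin-releasing peptide, 5.81, 5.72 and 5.69 and 5.69, 7.13 and 5.75. In these 3 genes array 36_2 was the highest of the 6.

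Axonal and guidance genes gave few calls. Of 31 axon growth, cytoskeleton and neurofilament genes, Tuba4a and Nefh, the heavy neurofilament, rose (median −0.03). Nefh read 9.40, 9.51 and 9.26 at P0 and 10.87, 10.34 and 10.80 at P4 (2.42-fold). Of 44 axon guidance genes 4 rose (9.09%, beside 2.28% of all genes) and none fell (median −0.02). They were Sema5a (1.85-fold) and Sema6d (1.60-fold), which are transmembrane semaphorins, Unc5b, a netrin receptor (1.72-fold), and Ntn4, a netrin of basement membranes (1.72-fold). Of these, Unc5b held its call in all 6 fits that left out 1 array, and Sema6d lost it in all 6 (adjusted p up to 0.166), Sema5a in 5 (up to 0.12) and Ntn4 in 4 (up to 0.0719). The guidance gene Draxin, which fell as described above, is not a member of the axon guidance list. In the extracellular matrix 3 of 19 genes rose and 1 fell. Tnr, the tenascin of perineuronal nets, read 5.55, 5.73 and 6.05 at P0 and 7.71, 7.81 and 7.18 at P4 (3.46-fold), Bcan, the proteoglycan brevican, rose 1.96-fold, the glypican gene Gpc5 2.15-fold, and Has3, a hyaluronan synthase, fell 1.76-fold.

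In the lists of lipid and signalling genes, 1 to 3 members of each were called. Of 29 cholesterol and fatty acid synthesis genes, Fads2, a fatty acid desaturase (1.64-fold), and Sc5d, an enzyme of late cholesterol synthesis (1.60-fold), rose, with a list median of 0.27. Each lost its call in 5 of the 6 fits that left out 1 array (adjusted p up to 0.116 and 0.105). Of 27 retinoid, thyroid and nuclear receptor genes, Aldh1a1 and Klf9, a thyroid hormone-responsive factor, rose and Crabp2 fell. Klf9 read 10.32, 10.54 and 11.22 at P0 and 12.24, 12.54 and 12.40 at P4 (3.25-fold). Of 14 insulin-like growth factor genes Igf1 was called, of 18 neuropeptide genes Gal (2.09-fold), of 24 early response genes Fosl2 (1.89-fold), and of 8 gap junction genes the astrocyte connexins Gja1 and Gjb6. Of 17 genes in the calcium-binding protein list, S100b, Hpca (2.33-fold) and Camk2d (1.96-fold), which encodes a calmodulin-dependent kinase, rose. Camk2d lost its call in 4 fits (adjusted p up to 0.101) and Hpca in 2 (up to 0.059).

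Genes of the thalamocortical and barrel system were read for the same ages. Of 17 genes with a role in barrel formation, 1 rose: Nrg1, a neuregulin, read 5.25, 5.23 and 5.10 at P0 and 5.80, 5.96 and 6.13 at P4 (1.70-fold, lost without 39_4, 36_2 or 40_3, adjusted p up to 0.0715). Of 11 genes of serotonin uptake, storage and reception, 1 rose: Htr7, a serotonin receptor, read 8.57, 8.61 and 8.52 and 9.67, 10.004 and 9.34 (2.15-fold, lost without 39_4, adjusted p = 0.0529). Slc6a4, the serotonin transporter that relay neurons express for a short time after birth, read 9.64, 9.90 and 10.26 at P0 and 10.52, 10.43 and 10.42 at P4. Every P4 array was above every P0 array, but the difference missed the threshold (0.52, SE 0.24, adjusted p = 0.297). None of 16 clock genes, 31 oxidative phosphorylation genes (median 0.12) or 25 ribosomal protein genes (median −0.06) was called.

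Markers of other cells and of neighbouring nuclei were read beside these results. In the microglia and complement list 1 of 19 genes rose, P2ry12, a receptor of ramified microglia, at 4.16, 4.27 and 3.93 at P0 and 5.60, 5.42 and 5.43 at P4 (2.57-fold). The summed signal of that list was 3200 to 3939 at P0 and 4234 to 4632 at P4. None of 24 vessel and mural cell genes (summed signal 5950 to 7320 at P0 and 5805 to 6457 at P4), 17 meningeal genes, 6 blood genes, 11 choroid plexus and ependymal genes or 14 habenula and midline genes was called. Of 12 genes listed for the visual thalamus, Crabp2 fell, although the paper uses Crabp2 as a marker of the auditory thalamus. Of the 12, 8 had a lower mean in the embBE VB than in the embBE dLGN at both ages, while Crabp2 was higher in the VB at both (means of 10.32 and 8.55 at P0 and 8.65 and 6.18 at P4). The summed signal of the list without Crabp2 was 11626 to 13575 at P0 and 8822 to 12155 at P4, and its part in the fall of other genes was not tested. None of 23 genes of the reticular nucleus and zona incerta was called, and their summed signal was 1138 to 1266 at P0 and 1247 to 1640 at P4. Gad1 of that list, chosen after its values were seen, read 4.41, 4.198 and 5.21 at P0 and 5.69, 5.98 and 7.39 at P4, with 40_3 the highest (1.75, SE 1.10, adjusted p = 0.461).

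The same ages were compared in the control VB, to see which differences the enucleated animals had beyond ordinary maturation. There 346 genes rose (1.90%) and 128 fell (0.704%). This count of 474 moved with the arrays and the fit. It was 203 without control array 40_1, 237 without 24_2 and 1180 without 36_3, 50 with the control VB arrays alone in the fit (814 for the embBE VB on its own), and 1 in the methods' t-test after Benjamini-Hochberg (296 in the embBE VB). The shares below rest on it. The age differences of the 2 conditions came from different arrays, but both were judged against the spread of the same 12 arrays. Of the genes that rose in the embBE VB, 261 rose in the control VB, which is 62.9% of the embBE and 75.4% of the control calls. Of those that fell, 40 were shared, 57.1% of the embBE and 31.2% of the control calls. All 485 genes called in the embBE VB had the same sign in the control VB. The median difference of the 415 genes was 0.89 in the embBE and 0.78 in the control VB, and that of the 70 genes −0.76 and −0.69. These genes were chosen by their embBE values, so the medians of the 2 conditions were not compared further. Across all genes the 2 differences correlated at r = 0.79, a description over genes that share arrays and are not independent.

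**Figure D4:**
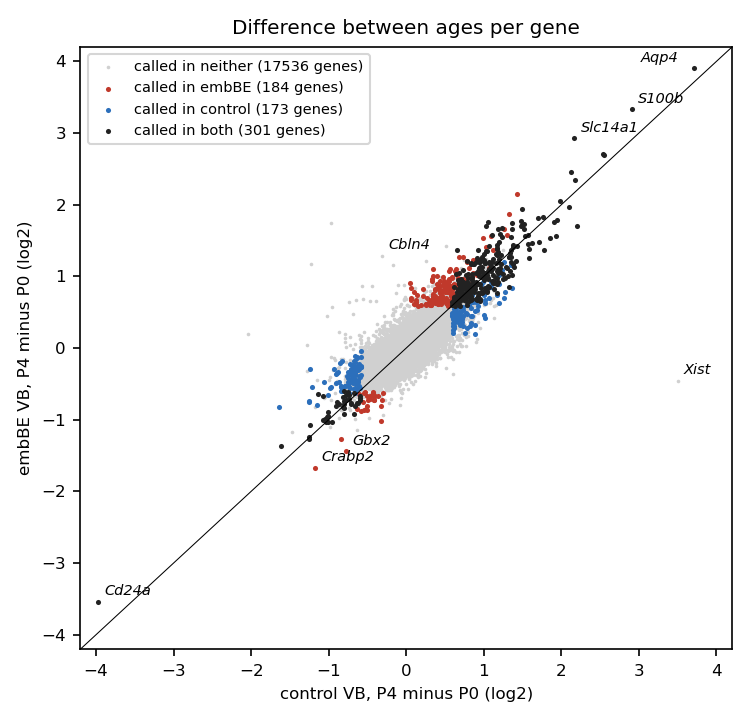
Difference between P4 and P0 (log2) in the embBE VB (vertical axis) against that in the control VB (horizontal axis), 1 point per gene, coloured by where the gene was called; the line marks equal differences. The 301 genes called in both lie in the upper right and lower left, and Xist, labelled at the right, was called in neither.

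The difference of the differences, tested for every gene in the same fit, was called for none of the 18194 genes (0%). The lowest adjusted p was 1, and 294 genes had an unadjusted p under 0.05. Only differences of some size could have been seen, since the median SE of this contrast was 0.20 on the log2 scale. For Aqp4 the control arrays read 6.41, 6.54 and 8.35 at P0 and 11.22, 10.47 and 10.75 at P4, and the embBE minus control difference was 0.19 (95% interval −1.05 to 1.43). For S100b it was 0.43 (−0.28 to 1.14), for Cd24a 0.44 (−0.29 to 1.16), for Igf1 0.34 (−0.13 to 0.80), for Gbx2 −0.66 (−1.64 to 0.32) and for Rorb −0.06 (−0.66 to 0.53). These intervals are not adjusted for the number of genes. They leave room for sizeable differences in either direction in several of the genes. The Rorb value is that of its brightest probe set, and the probe sets of Rorb were unlike. The second brightest rose by 0.67 in the embBE and by 1.27 in the control VB, and the third by 0.43 and 0.42. With every probe set counted, the contrast was called for 0 probe sets in limma.

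Among the 5 named genes on the higher side with the lowest unadjusted p in that contrast were Mvd, of cholesterol synthesis, and P2ry12. Mvd read 7.93, 7.73 and 7.78 at P0 and 8.13, 8.503 and 8.37 at P4 in the embBE VB and 8.45, 8.33 and 8.30 and 8.29, 8.16 and 8.19 in the control VB (contrast 0.66, SE 0.16). P2ry12 read 4.15, 4.67 and 4.42 and 5.16, 4.81 and 5.23 in the control VB and rose there too (contrast 0.71, SE 0.22). The others of the 5 were Zer1 (0.50), Csad (0.55) and Gpr162 (0.46), and on the lower side were Lpcat2b (−0.60), Khdc1b (−0.65), Sox8 (−0.41), Atat1 (−0.58) and Fat1 (−0.59). None passed adjustment. The matrix genes Bcan (0.97 in the embBE and 0.34 in the control VB) and Gpc5 (1.10 and 0.35) were called in the embBE VB and not in the control VB. Their contrasts were 0.63 (95% interval 0.16 to 1.10) and 0.75 (0.21 to 1.30) before adjustment, and neither passed it. The other called matrix genes, Tnr and Has3, had contrasts of −0.15 (−0.76 to 0.47) and −0.0025 (−0.42 to 0.42). All 3 control VB arrays at P0 had the Eif2s3y-high pattern and all 3 at P4 the Xist-high pattern, so in the control VB age and this pattern cannot be told apart. With the pattern as a covariate, 32 genes were called in the control VB in place of 474. Control arrays 35_1 and 36_3 had the widest actin gaps of the VB arrays, 4.29 and 3.14, and without them the contrast was again called for 0 genes in limma. Control P0 array 39_5 had a summed signal of 3563 for the reticular nucleus and zona incerta list. On control P0 arrays 35_1 and 35_2 it was 1493 and 1158, and at P4 1233 to 1436. Without 39_5 the contrast was called for 0 genes and the control VB count was 426, and its part was not tested further.

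The embBE dLGN, the visual nucleus that retinal axons did not reach, was the other comparison. There 213 genes rose (1.17%) and 131 fell (0.720%) between the ages. The age difference was itself larger or smaller in the VB than in the dLGN in 10 genes (0.0550% of those tested, limma over all 24 arrays), 8 of them with a larger and 2 with a smaller value in the VB. This contrast rested on single arrays: it was called for 0 genes without embBE VB array 35_3 (lowest adjusted p = 0.0558) and for 0 without 36_2 (0.0665), and for 3 to 6 without any other embBE VB array. The nuclei share 6 label pairs, and in all 6 the VB and the dLGN array had the same Xist or Eif2s3y pattern. With the pair as a fixed block 0 genes were called (lowest adjusted p = 0.0524), and with it as a random block the 10. The actin gap was 3.07 to 4.27 on these 7 dLGN arrays and 1.98 to 2.55 on the 6 VB arrays. With the gap as a covariate 19 genes were called, the 10 among them, and with the Xist or Eif2s3y pattern as a covariate 5 of the 10.

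Plekhd1 read 5.49, 4.797, 5.21 and 4.90 at P0 and 5.52, 5.39 and 5.13 at P4 in the dLGN, so that the rise of the VB had no counterpart there (contrast 2.09, SE 0.30, adjusted p = 0.0125). Kcna1 read 7.98, 8.11, 8.24 and 8.16 and 7.93, 8.53 and 8.38 (contrast 1.504, SE 0.22, adjusted p = 0.0125), and Kcnh5 2.97, 3.08, 2.95 and 2.60 and 2.66, 2.90 and 2.92 (contrast 1.27). In all 3 the P4 arrays of the VB lay above every dLGN array. Patj (1.39), a polarity protein, Tiam1 (1.16), an activator of Rac, Fosl2 (1.03) and Tpbg (1.64) had the same form, with dLGN differences of −0.20, −0.34, −0.12 and −0.07 that were not called.

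Aqp4 differed in its starting level. It read 9.84, 9.77, 9.32 and 9.89 at P0 and 10.54, 11.14 and 10.01 at P4 in the dLGN, against 6.71, 6.81 and 7.14 and 10.67, 11.16 and 10.55 in the VB (contrast 3.05, SE 0.51, adjusted p = 0.0248). The ranges of the nuclei overlapped at P4 and were more than 2 log2 units apart at P0. Car3 fell in the VB and rose in the dLGN, where it read 5.39, 5.45, 4.85 and 5.01 at P0 and 6.09, 6.94 and 5.96 at P4 (dLGN difference 1.15, SE 0.26, contrast −2.42). Pcp4, a calmodulin-binding protein, read 13.73, 13.77 and 13.83 at P0 and 13.94, 13.87 and 13.91 at P4 in the VB and 12.88, 12.63, 12.75 and 12.79 and 13.71, 13.57 and 13.57 in the dLGN, where it rose (dLGN difference 0.86, contrast −0.72).

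**Figure D5:**
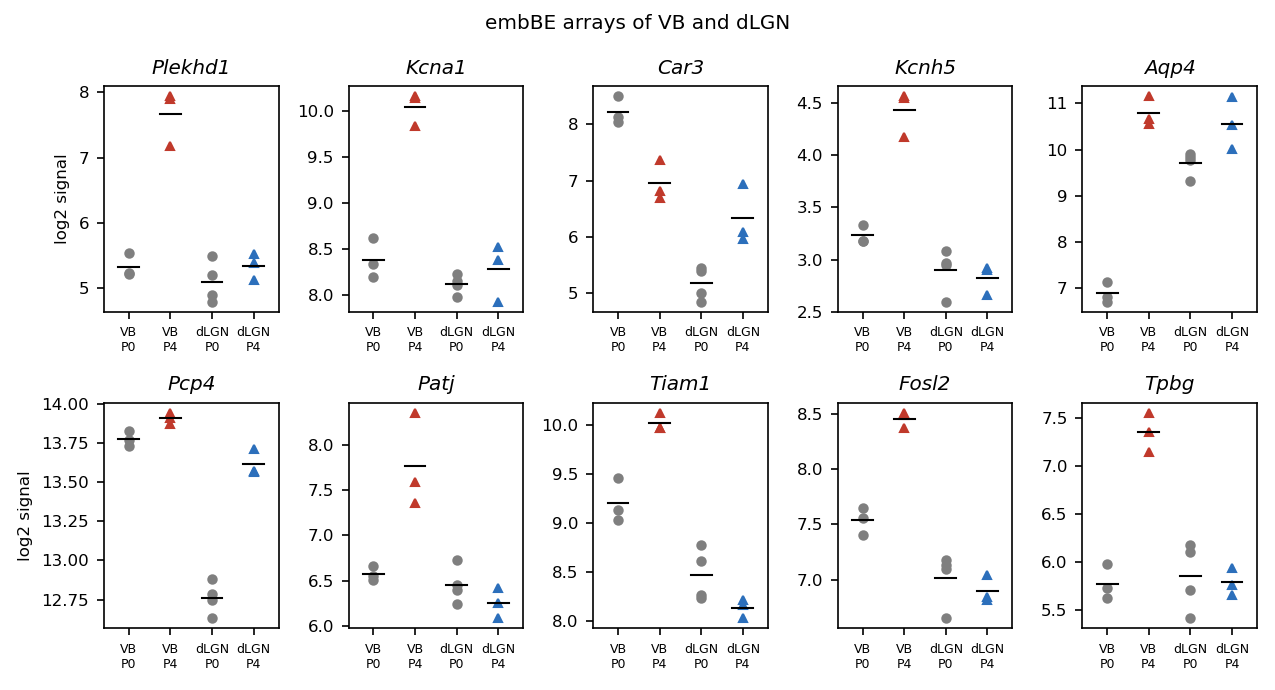
Log2 signal (vertical axes, scaled per gene and not starting at 0) of the 10 genes whose age difference was called as different between the embBE VB and the embBE dLGN, with 1 point per array and black bars for group means; circles are P0 and triangles P4. In 7 of the genes the P4 arrays of the VB lie above every other array shown, Aqp4 is low only in the VB at P0, and Car3 and Pcp4 rise in the dLGN.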

How the data were processed

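VB and dLGN tissue of embBE and control pups was measured on 24 arrays, 1 per pooled sample, grouped by the labels. The authors deposited log2 signals that they had normalized with RMA in Partek (versions not given in the sources used here), and these were used as deposited for 45101 probe sets. They hold no detection calls, so weak signals could not be separated from background, and the number of arrays limits the precision. RMA brings all arrays to 1 distribution, so changes are relative to the other probe sets of an array.

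Symbols came from the platform annotation, updated by Entrez number (34754 probe sets). Of the probe sets, 34958 had 1 symbol, 932 several and 9211 none. Each of 18194 genes was represented by its brightest 1-symbol probe set (mean of the 24 arrays), without a filter on dim signals. Differences between group means were tested with limma 3.58.1 in R 4.3.3 (lmFit, eBayes), over the 12 VB arrays, or over all 24 for contrasts with the dLGN, and adjusted by Benjamini-Hochberg over all genes. Called genes had a fold of at least 1.5 and an adjusted p under 0.05. The study's methods state the same fold with a p under 0.05, taken as unadjusted. The procedure was tested on simulated data.

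The members and gene lists were chosen with earlier results of these data known. Named genes are the 15 largest increases and 15 largest decreases among called genes whose ages do not overlap (unnamed clones passed over), up to 6 called members of each list and its defining members, up to 5 genes in each direction with the lowest p in each contrast of differences, and a fixed list of thalamic and glial genes. Gad1, Tiam1, Tpbg, Slc1a2, Slc6a11 and Ntsr2 lie outside it and were named after their values were seen. Upstream sequences are those of RefSeq, GRCm38.p6. Alternatives were the methods' t-test, other probe set choices, array sets and scalings, array weights, blocks by label number and leaving out each array. Covariates for the actin gap and for the Xist pattern and a fit without 2 control arrays were added after the data were seen. Label numbers were not used as pairs, since same-numbered VB and dLGN arrays had deviations from their group means that correlated at −0.15 to 0.19, although the Xist pattern was the same within all 6 pairs. Plots used Python 3.11.15 and matplotlib 3.10.9.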

Additional observations from a re-analysis of the deposited data

Results flagged for a closer look

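The age difference of 10 genes differed between the embBE VB and the embBE dLGN by a limma contrast over 24 arrays, with Benjamini-Hochberg adjusted p from 0.0125 to 0.0431. The VB value exceeded the dLGN value by 2.09 for Plekhd1, 1.504 for Kcna1, 1.27 for Kcnh5, 3.05 for Aqp4, 1.39 for Patj, 1.16 for Tiam1, 1.03 for Fosl2 and 1.64 for Tpbg, all on the log2 scale. The difference was −2.42 for Car3 and −0.72 for Pcp4. Of the 10 genes, 0 passed without embBE VB array 35_3 or without 36_2, and 0 with the label pair as a fixed block (lowest adjusted p = 0.0524).

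In Fosl2 1 of the 4 embBE dLGN arrays at P0, 39_2 at 6.65, stood apart from the other 3, which read 7.09 to 7.18. Its gap to the nearest was 0.838 of the whole range, above the 95% critical value of Dixon's test for 4 values. Chance gives such a value in about 1 of 20 groups, and 10 genes were examined.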

How the results depend on the processing

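Counts below are genes called, beside 485 for the embBE VB, 474 for the control VB, 344 for the embBE dLGN, 10 for VB minus dLGN and 0 for embBE minus control. At the study's threshold without adjustment they were 826, 927, 661, 330 and 63. The methods' t-test gave 769 in the embBE VB at that threshold, and after Benjamini-Hochberg 296, 1 (control VB) and 0 (dLGN). Counting every probe set gave 823, 887 and 660 in the 3 age comparisons, and the mean of a gene's probe sets 6 for VB minus dLGN. Fitting only the groups compared gave 814, 50, 88 and 16, and fitting the 12 dLGN arrays 173 in the dLGN. Array weights gave 837, 1248 and 101 (VB minus dLGN). Without control arrays 35_1 and 36_3 the counts were 812 and 926. With the Xist pattern as a covariate the control VB gave 32 and VB minus dLGN 5, and with the actin gap 19 for the latter. Leaving out 1 array at a time gave 202 (without 39_4) to 293 in the embBE VB, 203 (without 40_1) to 1180 (without 36_3) in the control VB, 181 (without 36_2) to 409 in the dLGN, and 0 (without VB 35_3 or 36_2) to 9 for VB minus dLGN. The causes were not tested. The embBE minus control count was 0 in every other setting run.

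The share of higher genes in the embBE VB was 85.6%, 86.3% after cyclic loess and 76.3% (363 higher and 113 lower) after centring on the median. Of the 78 named genes called in the embBE VB, 42 kept their call without any 1 array and 0 changed sign. A changed sign was seen only in genes not called in the main fit. Their main values were near 0 apart from Cbln2 (0.22) and Grp (0.45). Mbp was 1.32 as the mean of its probe sets. Leaving out 1 array at a time gave −0.0541 to 0.0933 for Tac1, −0.0287 to 0.0286 for Gpr162, −0.0813 to 0.0889 for Sox14, −0.194 to 0.0877 for Mki67, −0.227 to 0.0097 for Mbp, −0.235 to 0.0484 for Grin2b, −0.0637 to 0.418 for Cbln2 and −0.0180 to 0.701 for Grp, the last 2 turning without 36_2. Cyclic loess turned Gpr162 (−0.0180) and Tac1 (−0.0017), centring turned Gpr162 (−0.0454), Tac1 (−0.0290) and Sox14 (−0.0305), the mean of probe sets Tac1 (−0.15), and the actin gap Grin2b (0.0572) and Tac1 (−0.0539).

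With the label pair as a fixed replicate block, 0 genes were called for VB minus dLGN (lowest adjusted p 0.0524), and 10 with it as a random block; for embBE minus control the first label number as a block gave 0. Of the 6 VB arrays, 2 correlated best with the dLGN array of their own pair.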
